A study of Mus musculus with 119 samples.

Results

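The heterotrimeric G protein subunit genes were the 33 genes, of 55291 in the count tables, whose symbols name an α subunit (16 genes of the Gna family), a β subunit (5 genes, Gnb1 to Gnb5) or a γ subunit (12 genes of the Gng family). They were chosen by symbol, at a time when earlier results of these data were known. The libraries came from female and male mice that received daily intraperitoneal injections of vehicle (ethanol, Tween and saline) or of 10 mg/kg tetrahydrocannabinol (THC) in that vehicle from postnatal day (PND) 28 to 48, 21 injections in all, and that went through behavioral tests from PND 63 before the brains were taken. The labels name no mutation in any group, and every mouse went through the injections and the tests. By the labels the mice were C57BL/6J aged 11 weeks, and the striatal samples were dorsolateral. The methods of the study give C57BL/6NCrl, brains taken in week 12 and the dorsal medial striatum (DMS), and the name DMS is used here. Polyadenylated RNA was sequenced from 5 regions, namely the DMS, the prefrontal cortex (PFC), the amygdala (Amy), the nucleus accumbens (NAc) and the ventral tegmental area (VTA). Of the 119 libraries, 5 were from the VTA of vehicle-treated males (Male_VTA_Veh), and every other combination of region, sex and treatment had 6. Within a region each library is 1 mouse, and the labels do not say which libraries of different regions share a mouse.

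A heterotrimeric G protein is made of an α subunit, which binds GTP and sets the signal, and a βγ pair, which holds the α subunit at the membrane and signals on its own to channels and enzymes. Receptors such as CB1, the main receptor of THC in brain, dopamine receptors and adenosine receptors act by loading the α subunit with GTP. The Gs and Golf proteins raise cAMP, the Gi, Go and Gz proteins lower it or act through βγ, the Gq proteins turn on phospholipase C and the G12 proteins act on the actin cytoskeleton. In the striatum, Golf (Gnal) takes the place that Gs (Gnas) holds in most of the brain, and it is known to work there with the γ7 subunit (Gng7) to couple dopamine D1 and adenosine receptors to adenylyl cyclase 5 (Adcy5).

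Depth, the summed expected counts of a library, ran from 3091000 to 77042100 with a median of 22092600. In 2 libraries, FTL_344 of Female_Amy_THC and FTL_356 of Male_Amy_THC, the sex-linked genes were at levels opposite to the labelled sex, and in the other 117 they were as labelled. Both were kept under their labels and are part of the levels of the Amy below, and the comparisons of THC, sex and region in the Amy are given with and without them. Levels are given as CPM, counts scaled to a common library size. Summed medium spiny neuron markers had a median of 8115 CPM in the DMS and 3787 in the NAc against 205 in the PFC. Summed cortical projection neuron markers had a median of 2480 CPM in the PFC, and summed dopaminergic markers had a median of 3138 CPM in the VTA. The PFC, DMS, NAc and VTA libraries thus held the markers of their labelled tissue, but some also held markers of other tissue. Cortical projection neuron markers reached 265.89 CPM in a DMS library, where the median was 3.58 CPM. They reached 140.24 CPM in the NAc (median 8.58) and 154.32 CPM in the VTA (median 14.2). Medium spiny neuron markers reached 506.49 CPM in a PFC library. The part of these markers in the levels below was not tested. The Amy libraries varied widely in such markers, with medium spiny and central amygdala markers between 490 and 2723 CPM and choroid plexus markers between 17.1 and 3561 CPM. In bulk tissue, fewer cells of a type and less RNA per cell cannot be told apart, and this holds for every level below.

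Of the 33 genes, 27 reached a mean of 1 CPM in at least 1 region. The other 6 were the transducin and gustducin α genes Gnat1, Gnat2 and Gnat3, known from photoreceptors and taste cells, the photoreceptor genes Gnb3 and Gngt1, and Gna14, a Gq relative. Gnat3 had 0 counts in all 119 libraries, which allows up to 0.00102 CPM over the libraries together. Gna14 came closest to 1 CPM, with means of 0.972 CPM in the NAc and 0.937 CPM in the DMS but 0.0886 CPM in the PFC. The related pseudogenes Gnb1-ps2, Gnb1-ps3, Gng2-ps1 and Gng5-ps stayed at or below 0.112 CPM in every library.

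To compare the levels of different genes, CPM was divided by the length of their exons (CPM per kb). Summed in this way, the α genes held between 390 ± 10.9 (DMS) and 497 ± 13.5 (Amy) CPM per kb, the β genes between 229 ± 9.20 (VTA) and 379.1 ± 25.8 (DMS), and the γ genes between 242 ± 12.7 (VTA) and 534 ± 30.0 (DMS), as mean ± SD over the 23 libraries of the VTA or the 24 of another region. By this measure the γ sum of the DMS was the highest of the 15 family sums, and a single gene, Gng7, made up most of it. The length used is the union of all annotated exons of a gene, from 773 bases (Gng13) to 12692 (Gnb4), with 11186 for Gnas. It can exceed the length of the main transcript. The order of genes and families per kb, and the shares below, therefore depend on this divisor. Among the 27 expressed genes, 9 were highest in the DMS, 7 in the PFC, 7 in the VTA, 3 in the Amy and 1 in the NAc. The range over libraries of the highest region lay apart from that of the next in 7 genes, and the lowest region lay apart in 6. In 12 genes no neighbouring regions in the order of levels lay apart. The spread between libraries of a region had a median coefficient of variation over the 27 genes between 5.73% (PFC) and 10.5% (Amy). The highest coefficient of a single gene in a region lay between 37.5% (Gngt2 in the VTA) and 44.6% (Gng8 in the PFC). The PFC and DMS were deposited in 1 table and the other regions in another, so a difference in level between regions of different tables cannot be told apart from a difference between the tables.

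The stimulatory α genes, Gnal and Gnas, differed in opposite ways between the DMS and NAc and the other regions. Gnal had a median of 947 CPM in the DMS (lowest 771, highest 1120) and 788.5 CPM in the NAc (614 to 894). It had 302.2 CPM in the Amy (166 to 497), 227 CPM in the PFC (205 to 276.6) and 190 CPM in the VTA (160 to 234). The ranges of the DMS and NAc overlapped each other and lay above every library of the other 3 regions. Gnas had its lowest level in the DMS, with a median of 339.3 CPM (318.7 to 527), followed by the NAc with 824 CPM (550 to 1089) and the PFC with 1258 CPM (1195 to 1365). The VTA and Amy came last with 1693 CPM (1547 to 1877) and 1699 CPM (1555 to 1909). Only the VTA and Amy overlapped, and each other step in the order of Gnas lay apart. Gnas shares its locus with 5 overlapping genes of the GENCODE annotation, 2 of them on the other strand including Nespas, and the sources used here do not say whether counting used the strand, so reads of the imprinted transcripts of this locus may be part of its count.

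The α genes that inhibit adenylyl cyclase or act through βγ differed less. Gnao1, the Go gene, was among the most even, with means from 541 ± 31.9 CPM (VTA) to 772 ± 53.2 CPM (DMS). Gnai1 was highest in the PFC at 250 ± 9.88 CPM, where every library lay above every library of the other regions, and lowest in the DMS at 124 ± 9.50 CPM. Gnai2, which is also abundant in microglia, had mean levels of 129 ± 5.59 CPM (PFC), 141 ± 10.2 CPM (DMS), 195 ± 11.1 CPM (NAc), 217 ± 16.1 CPM (Amy) and 231 ± 20.8 CPM (VTA). A gap stood only between the DMS and the NAc, which belong to different tables. Gnaz, the Gz gene, was highest in the PFC at 115 ± 3.49 CPM and between 70.7 and 94.9 CPM elsewhere. Of the Gq genes, Gnaq was lowest in the DMS (135 ± 7.02 CPM, apart from the other regions) and highest in the PFC (257 ± 9.18 CPM), and Gna11 stayed between 115 and 163 CPM with no gap. Gna12, of the G12 class, had 203 ± 16.8 CPM in the VTA against 75.1 to 101 CPM in the other regions, and the VTA lay apart, while its relative Gna13 had 48.5 to 77.8 CPM with overlaps throughout. Gnai3 (27.4 to 32.5 CPM) and Gna15 (1.54 to 2.03 CPM) overlapped between all neighbouring regions.

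Of the β genes, Gnb1 gave the largest share of β transcripts per kb in the PFC (55.8 ± 0.914%), Amy (48.3 ± 1.93%) and VTA (54.1 ± 2.18%), but not in the DMS, where Gnb2 had 38.6 ± 0.745% against 31.1 ± 1.304% for Gnb1. In the NAc the shares of Gnb2 and Gnb1 were 38.1 ± 1.43% and 37.1 ± 1.91%, closer than their SD. Gnb5, the β gene whose product pairs with the R7 class of RGS proteins rather than with a usual γ subunit, had a median of 345.3 CPM in the DMS (250 to 424) and 207 CPM in the NAc (178 to 244). Its medians were 153 CPM in the PFC (128 to 171), 131 CPM in the Amy (118 to 156) and 105 CPM in the VTA (94.1 to 114). Only the PFC and Amy overlapped in this order. Its share of β transcripts was 29.1 ± 1.29% in the DMS and 14.7 ± 0.754% in the VTA. Gnb4 was low per kb in every region (2.18 to 5.40 CPM per kb) and had a mean of 68.6 ± 7.49 CPM in the NAc and 59.0 ± 6.50 CPM in the DMS against 27.7 ± 3.58 CPM in the VTA.

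**Figure D1:**
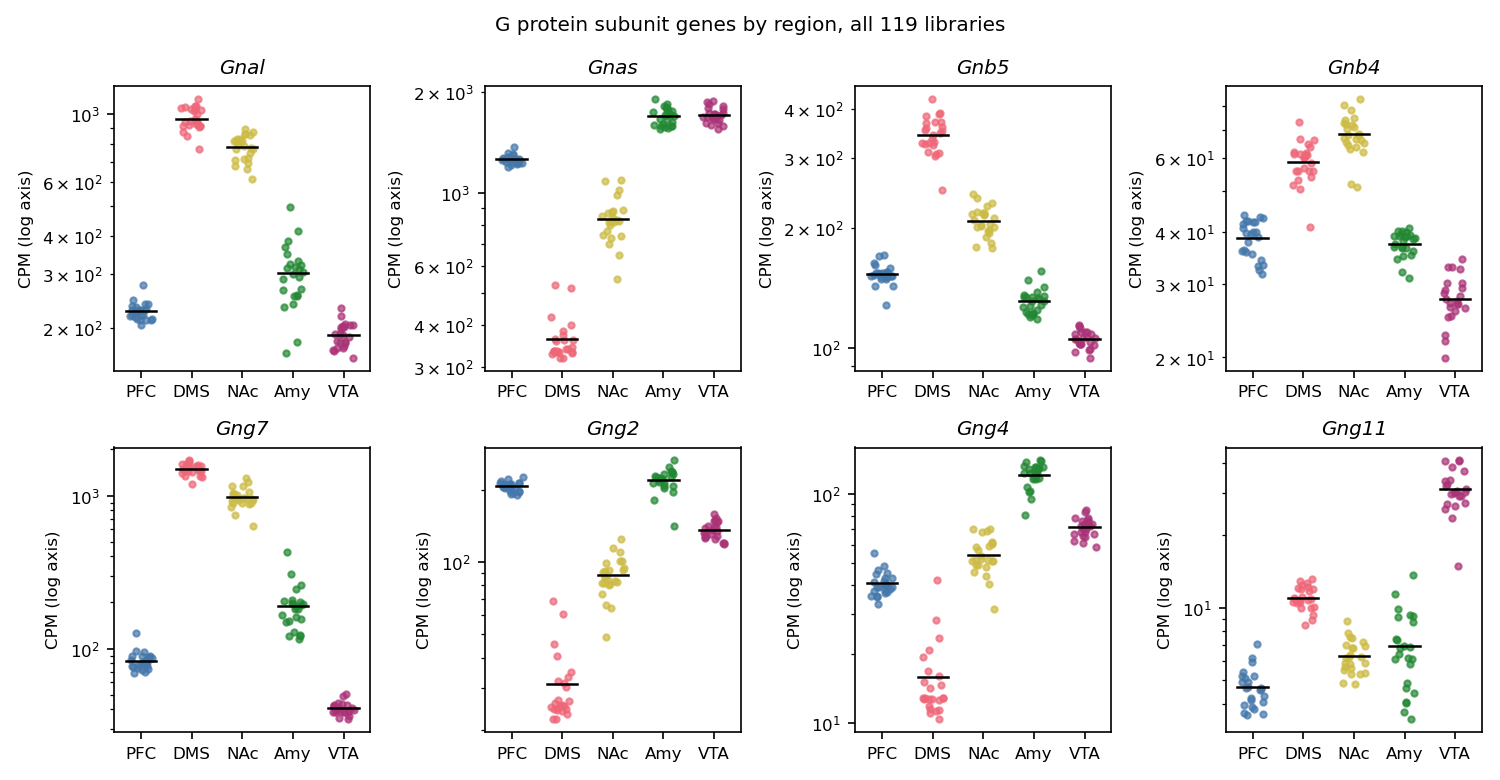
Levels of 8 G protein subunit genes in the 119 libraries by region. The y axis is CPM on a log scale, each point is 1 library and each line the mean of a region. Gng7, Gnal and Gnb5 sit highest in the DMS and Gnas, Gng2 and Gng4 lowest there, while Gng11 sits highest in the VTA.

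The γ genes differed most. Gng7, whose product is known as the partner of Golf in the striatum, had a median of 1486 CPM in the DMS (1190 to 1695) and 959.9 CPM in the NAc (633 to 1298). In the other regions it had 184 CPM in the Amy (115 to 425), 81.3 CPM in the PFC (68.8 to 127) and 39.8 CPM in the VTA (34.4 to 50.4). The ratio of its highest to its lowest region mean was 36.8, the largest of the 27 expressed genes, followed by 7.61 for Gng4, 7.06 for Gng2, 6.64 for Gng11, 5.09 for Gnal and 4.70 for Gnas. The DMS and NAc overlapped, as did the Amy and PFC, and the VTA lay below all other libraries. As a share of γ transcripts per kb, Gng7 made up 73.7 ± 2.09% in the DMS and 61.0 ± 4.99% in the NAc, 16.8 ± 5.72% in the Amy, 8.42 ± 1.12% in the PFC and 4.44 ± 0.489% in the VTA.

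Gng7 lies on chromosome 10 (mm10, 80948624 to 81014945, minus strand) and overlaps Gm3828 on the same strand. Gnal overlaps 6 annotated genes, 2 on the same strand and 4 on the other, among them Chmp1b and Mppe1, so reads of these genes may be part of both counts. The bases before the outer start of Gng7 are shown because Gng7 is the gene of the family whose level differed most between regions. They span chr10:81014926-81015175 of GRCm38.p6 and are from RefSeq. The last bases of this window lie within the coordinates of Gng7 given above, which are those of GENCODE. The sequence is written 5′ to 3′ on the strand of the gene, with the GC box (GGGCGG, or CCGCCC on the other strand) in capitals:
Gng7 outer start: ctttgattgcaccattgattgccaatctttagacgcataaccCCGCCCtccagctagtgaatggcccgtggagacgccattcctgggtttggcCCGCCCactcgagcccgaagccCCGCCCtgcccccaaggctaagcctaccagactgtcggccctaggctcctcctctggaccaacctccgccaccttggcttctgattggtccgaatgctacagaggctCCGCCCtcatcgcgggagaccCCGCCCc
This window of 250 bases held 5 GC boxes and 15 CpG dinucleotides at 62.8% GC, and the window before the inner annotated start of Gng7 held 0 GC boxes. Of the 33 genes, 25 had windows on file that were read here, 32 windows in all with alternative starts, and 15 of these (46.9%) held a GC box against 32.7% of all 32851 windows of this length. A TATA box (TATAAA) stood in 5 of the 32 windows and a CRE (TGACGTCA) in 0, against 12.4% and 1.55% of all windows. Windows of alternative starts can overlap. Those of Gnas at chr2:174327499-174327748 and chr2:174327518-174327767 hold the same TATA box, so the windows are not independent. Both strands were searched, each motif was counted on its own whether or not it overlapped another, and a match of letters is a description of the window only.

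In the regions where Gng7 was low, Gng3, a widespread neuronal γ gene, took the largest share of the γ transcripts. Gng3 had 42.7 ± 1.16% of γ transcripts per kb in the PFC, 41.2 ± 2.89% in the VTA and 32.0 ± 3.02% in the Amy, but 15.7 ± 2.36% in the NAc and 7.85 ± 0.792% in the DMS. Gng2, also neuronal, had 17.99 ± 0.865% in the PFC, 16.7 ± 2.13% in the Amy and 12.8 ± 1.19% in the VTA, against 4.87 ± 1.23% in the NAc and 1.35 ± 0.606% in the DMS. In CPM, Gng2 had a median of 224 in the Amy (142 to 264.8), 206 in the PFC (190 to 226) and 135 in the VTA (119 to 158), against 86.2 in the NAc (48.8 to 125) and 25.5 in the DMS (22.1 to 69.1). The Amy and PFC overlapped and the PFC lay above the VTA, whereas the VTA, NAc and DMS each overlapped their neighbour. Gng3 had 184 ± 7.29 CPM in the PFC and 68.6 ± 4.60 CPM in the DMS, where it lay below every other library. Gng4 had a median of 124 CPM in the Amy (80.8 to 140), 72.5 CPM in the VTA (58.7 to 84.7) and 51.7 CPM in the NAc (31.6 to 70.3). It had 39.7 CPM in the PFC (33.3 to 55.4) and 12.9 CPM in the DMS (10.4 to 41.9), and each neighbouring pair overlapped.

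Gng11, a γ gene known mainly outside neurons, had a median of 30.3 CPM in the VTA (14.9 to 40.9), above every library of the other regions, where region means ran from 4.68 to 11.0 CPM. Per kb it gave 13.9 ± 2.44% of γ transcripts in the VTA and between 1.66 and 2.53% elsewhere. Gng8, known from olfactory and vomeronasal neurons, was counted at a low level, with a mean of 1.89 ± 0.594 CPM in the VTA, 1.18 ± 0.291 CPM in the DMS and 0.406 to 0.727 CPM in the other regions, with overlaps throughout. The shallowest library, FTL_371 of Male_VTA_Veh, held 0 counts of Gng8. Gng10 had 50.5 ± 5.10 CPM in the DMS and 16.1 ± 2.13 CPM in the VTA, which lay apart below the rest. Gng12 was highest in the PFC at 78.5 ± 7.03 CPM, apart from the other regions at 47.2 to 53.0 CPM. Gng13 (7.99 to 16.6 CPM), Gng5 (6.70 to 13.9 CPM) and Gngt2 (1.19 to 1.95 CPM) overlapped between all neighbouring regions. Gng10 overlaps Gm20503 on the same strand, Gng13 overlaps Chtf18 on the other strand and Gng3 overlaps Bscl2 on the other strand, so their counts may hold reads of those genes.

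**Figure D2:**
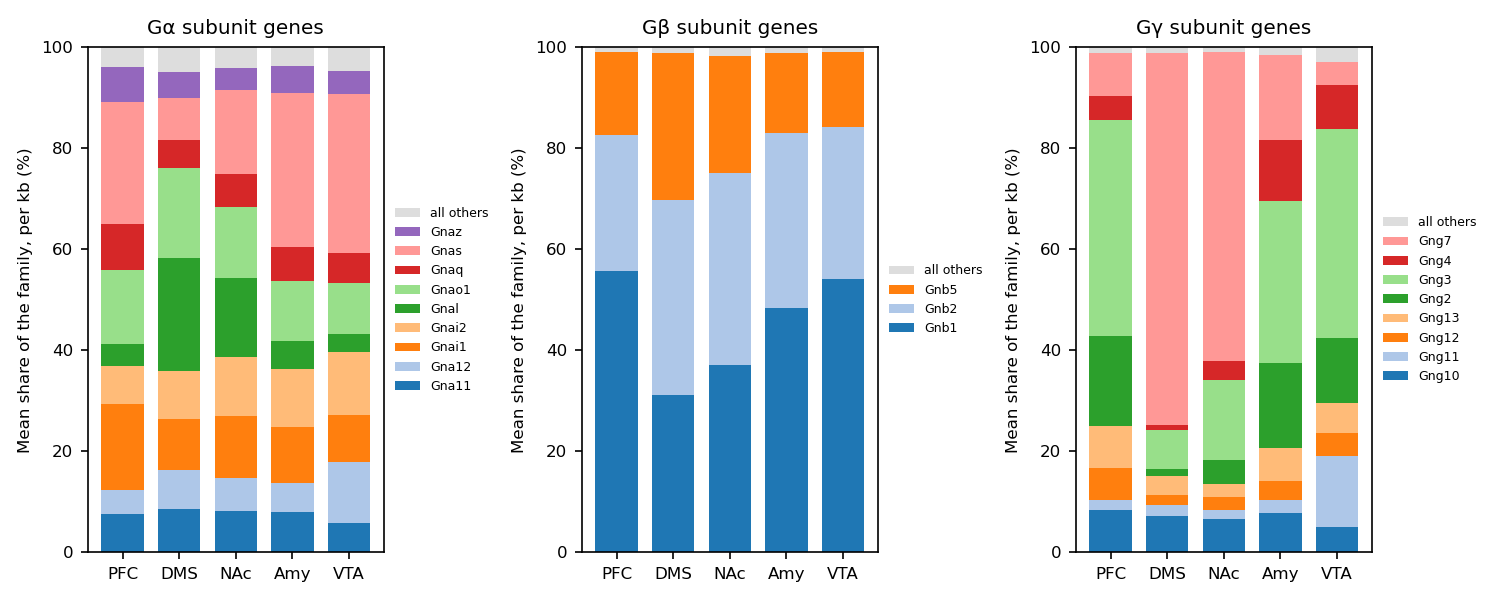
Mean share of the α, β and γ transcripts per kb that each subunit gene held, by region, as stacked bars that add up to 100% in each family. Genes of at least 3% in some region are named. Gng7 fills 73.7% of the γ bar in the DMS and 4.44% in the VTA, and Gnas fills 8.33% of the α bar in the DMS and 31.3% in the VTA.

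To ask which of these differences held against the spread between libraries, regions of the same table were compared with edgeR's quasi-likelihood test over all genes, with the groups of sex and treatment weighted equally. A gene was called where its Benjamini-Hochberg adjusted p (FDR) was under 0.05 and its log2 fold change was at least 1 in size. Libraries of different regions of 1 mouse entered as if independent. Between the PFC and DMS, 11 of the 28 subunit genes tested were called, 5 higher in the PFC and 6 lower, where 11.1% and 9.59% of all genes tested were called higher and lower. Higher in the PFC were Gng2 by 2.76 on the log2 scale (SE 0.0961), Gnas by 1.81 (SE 0.0439), Gng3 by 1.44 (SE 0.0226), Gng4 by 1.38 (SE 0.112) and Gnai1 by 1.03 (SE 0.0254). Lower in the PFC were Gng7 (log2 fold change -4.14, SE 0.0445), Gna14 (-3.29, SE 0.234), Gnal (-2.07, SE 0.0271), Gng8 (-1.51, SE 0.150), Gng11 (-1.22, SE 0.0617) and Gnb5 (-1.15, SE 0.0315). The largest of their 11 adjusted p values was 4.53e-13 (Gng8). Gna14 stayed under a mean of 1 CPM in both regions, with 0.0886 CPM in the PFC. It was too low to be tested between the sexes in the PFC alone, so its fold change rests on few counts.

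Between the NAc and Amy, 4 of 29 were called, of which Gng7 (2.40, SE 0.0894) and Gnal (1.42, SE 0.0646) were higher in the NAc and Gng2 (-1.28, SE 0.0516) and Gng4 (-1.11, SE 0.0555) lower, where 3.59% and 5.01% of all genes were called higher and lower. Between the NAc and VTA, 10 of 29 were called, 5 in each direction, where 11.1% and 12% of all genes were called higher and lower. Higher in the NAc were Gng7 (4.61, SE 0.103), Gnal (2.07, SE 0.0672), Gnb4 (1.34, SE 0.0432), Gng10 (1.23, SE 0.0524) and Gnb5 (1.03, SE 0.0295). Lower in the NAc were Gng11 (-2.27, SE 0.0950), Gnb3 (-1.89, SE 0.294), Gng8 (-1.37, SE 0.145), Gna12 (-1.02, SE 0.0435) and Gnas (-1.003, SE 0.0363). Gnb3 had a mean of only 0.303 CPM in the VTA, its highest region. It was too low to be tested between the sexes in the NAc or VTA alone, so its fold change rests on few counts. In the vehicle libraries alone 7 were called, since Gnas (-0.96) and Gnb5 (0.94) fell short of the fold threshold and Gnb3 of the filter on low counts. Between the Amy and VTA, 4 of 29 were called, Gng7 higher in the Amy (2.21, SE 0.0924) and Gng11 (-2.20, SE 0.0944), Gng8 (-1.62, SE 0.147) and Gna12 (-1.08, SE 0.0436) lower, where 8.74% and 9.17% of all genes were called higher and lower. Without both Amy libraries whose sex-linked genes go against their labels, 4 were again called in each comparison with the Amy, with Gng7 higher by 2.36 in the NAc than in the Amy and by 2.26 in the Amy than in the VTA. Gng7 was thus called in every comparison of regions within a table.

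Genes that stand beside the subunits in the pathway were counted as 3 lists, 13 receptors, 19 effectors and 20 regulators that were tested. Between the PFC and DMS, where 11.1% and 9.59% of all genes were called higher and lower in the PFC, 1 receptor was called higher and 6 lower, with Gabbr2, a GABA-B receptor subunit, at 2.82 (SE 0.0402) and Drd1, the dopamine D1 receptor, at -4.27 (SE 0.0759) on the log2 scale. Of the effectors, 7 were called higher and 2 lower in the PFC, and the adenylyl cyclases split, with Adcy5 at -3.38 (SE 0.0354) and Adcy2 and Adcy1 at 2.09 (SE 0.0264) and 2.32 (SE 0.0379). Of the regulators, 3 were called higher and 4 lower, among the latter Ric8b, the chaperone of Gαs and Gαolf, at -1.91 (SE 0.0257). Between the NAc and VTA, against 11.1% and 12% of all genes, 7 receptors were called higher in the NAc and 0 lower, and 4 and 3 effectors and 3 and 2 regulators were called higher and lower, with Adcy5 at 2.45 (SE 0.0734) and Rgs9, which forms a complex with Gβ5, at 4.25 (SE 0.127). The NAc had 4 receptors called higher and 1 lower than the Amy, with 2 and 3 effectors and 2 and 0 regulators, against 3.59% and 5.01% of all genes. The Amy had 7 receptors called higher and 1 lower than the VTA, with 4 and 2 effectors and 3 and 1 regulators, against 8.74% and 9.17% of all genes.

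Gnal and Gnas were set against each other in each library as the ratio of their CPM. This ratio was not divided by length, so it compares libraries and regions and does not say which of both genes had more transcripts. The mean ratio was 2.73 in the DMS and 0.968 in the NAc, against 0.181 in the PFC, 0.180 in the Amy and 0.111 in the VTA. On the log2 scale it ran from 0.58 to 1.75 over the DMS libraries and from -0.83 to 0.70 over those of the NAc. It ran from -2.68 to -2.14 in the PFC, from -3.48 to -1.68 in the Amy and from -3.38 to -2.98 in the VTA. The DMS and NAc overlapped and lay above every library of the other regions, and the spread of the Amy libraries took in those of the PFC and the VTA.

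Gnal and Gng7 also moved together among libraries of 1 region. Over the 12 vehicle libraries of a region, Pearson's r of their log2 CPM was 0.964 (DMS), 0.925 (NAc) and 0.927 (Amy) (permutation test, 100000 resamples, two-sided, adjusted p over the 5 regions 2.5e-05, 2.5e-05 and 8.33e-05), with Spearman coefficients of 0.916, 0.944 and 0.930 (adjusted p from the same kind of test 0.000167, 5e-05 and 5e-05). The unadjusted p of r in the DMS and NAc, 1e-05, is the smallest that this number of resamples can give. Without the 2 libraries farthest from the median of Gnal, r was 0.887, 0.873 and 0.946. In the PFC r was 0.592 (permutation test, adjusted p 0.0789) with a Spearman coefficient of 0.0839 (adjusted p 0.800), and r was -0.31 without the 2 farthest libraries, so that this value rests on them. In the 11 vehicle libraries of the VTA r was -0.00055 and the Spearman coefficient 0.164 (permutation test, adjusted p 0.998 and 0.792). With the THC libraries added, r within females and within males was 0.840 and 0.940 (DMS), 0.882 and 0.977 (NAc) and 0.914 and 0.942 (Amy). Without FTL_344 and FTL_356 it was 0.921 and 0.942 in the Amy. In the PFC it was 0.730 in females and -0.0965 in males, and in the VTA -0.38 and 0.235. Summed medium spiny neuron markers also ranged widely where r was high, from 5677 to 9489 CPM (DMS), from 2554 to 5259 CPM (NAc) and from 490 to 2723 CPM (Amy). Their part in the correlation was not tested.

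**Figure D3:**
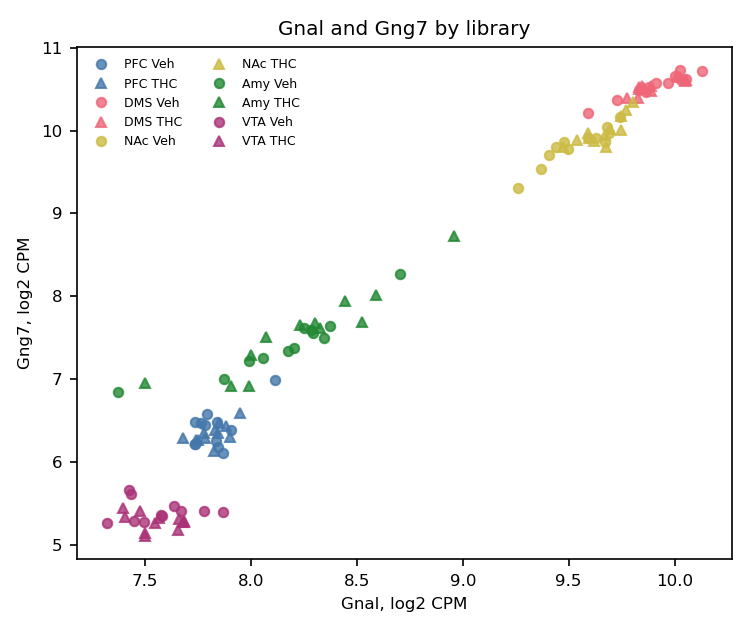
Levels of Gnal (x axis) and Gng7 (y axis) as log2 CPM in the 119 libraries, coloured by region, with circles for vehicle and triangles for THC. The points of the DMS, NAc and Amy rise along a line within each region, and those of the VTA do not.

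THC was compared with vehicle within each region and sex by edgeR's quasi-likelihood test on the libraries of that group, and a gene was called a differentially expressed gene (DEG) where the FDR was under 0.05 and the log2 fold change at least 0.4 in size. Of the 26 to 28 subunit genes tested in each of the 10 groups, 1 was a DEG, Gng8 in the Amy of females, where 1.57% of all genes tested were DEGs. In the DMS of females 0 of 28 were DEGs against 0.0127% of all genes, and in the other 8 groups 0 were DEGs against 0% of all genes. At an unadjusted p under 0.05 there were 6 of 28 subunit genes in the female Amy against 21.9% of all genes, and 9 of 28 in the male NAc against 16.7%. There were 5 of 28 in the female VTA against 9.02%, 4 of 28 in the female DMS against 8.9%, 2 of 28 in the male Amy against 1.84%, 1 of 28 in the female NAc against 4.61% and 1 of 26 in the female PFC against 5.84%. There were 0 in the male PFC, DMS and VTA against 4.07%, 1.93% and 5.92%. The medians of the subunit genes' log2 fold changes lay between -0.065 (female VTA) and 0.013 (male VTA).

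**Figure D4:**
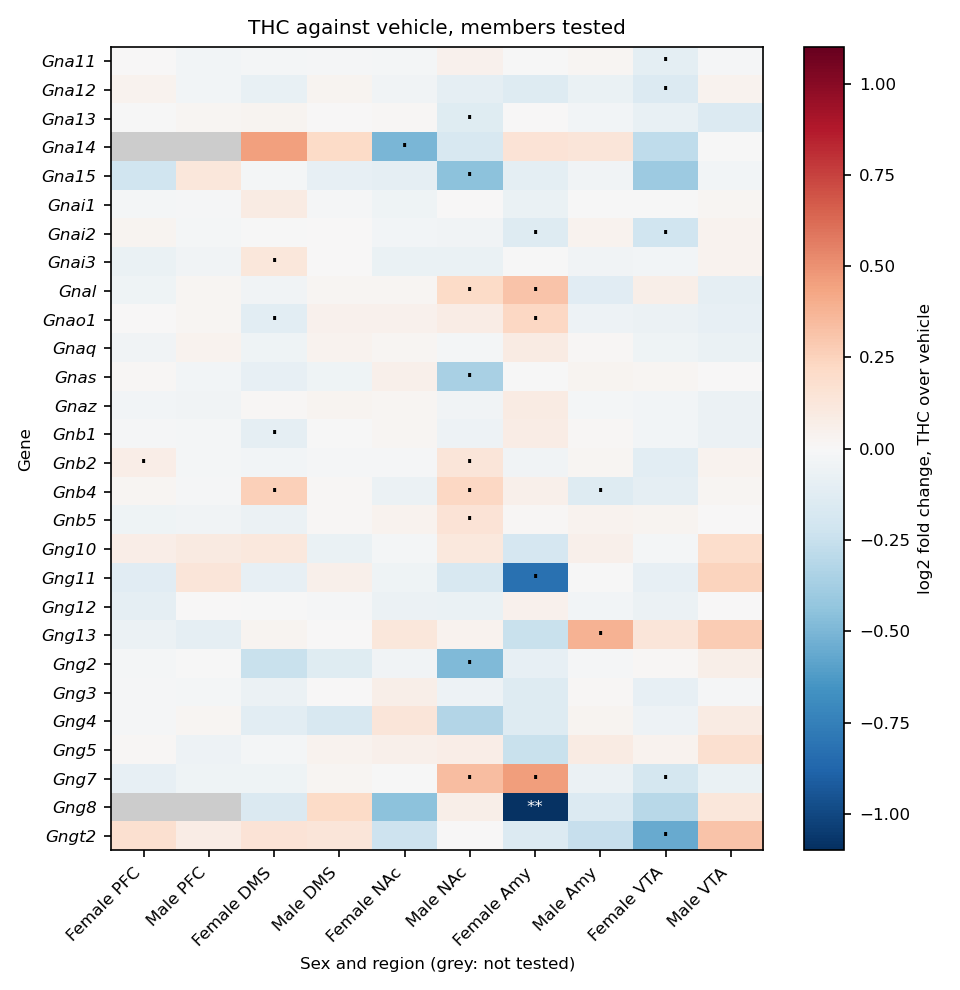
Log2 fold change of THC against vehicle for each subunit gene tested (rows) in the 10 groups of region and sex (columns), as colour. Asterisks mark an adjusted p under 0.05, dots an unadjusted p under 0.05, and grey a gene not tested. Only Gng8 in the female Amy carries asterisks, and the dots of the male NAc stand on genes of both directions.

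In the Amy of females, Gng8 was lower after THC. Its level ran from 0.618 to 1.11 CPM in the vehicle libraries (median 0.845) and from 0.193 to 0.523 CPM in the THC libraries (median 0.405). The groups did not overlap. The log2 fold change was -1.09 (SE 0.228, edgeR adjusted p 0.0270). These levels rest on 12 to 36 counts a library with vehicle and 4 to 28 with THC, at a depth of 13018400 to 46044500 and of 20341400 to 76111400 counts. In males of the same region Gng8 ran from 0.408 to 0.987 CPM with vehicle (median 0.714) and from 0.148 to 0.895 CPM with THC (median 0.721), and the groups overlapped. The male levels rest on 4 to 42 counts a library with vehicle and on 2 to 12 with THC. The depth was 9663290 to 56648800 counts with vehicle and 8713200 to 14939500 with THC. The difference of the THC effects between the sexes was 0.95 on the log2 scale for males minus females (SE 0.393, edgeR adjusted p 0.272), or 1.17 without FTL_344 and FTL_356 (SE 0.348, edgeR adjusted p 0.196), so a sex difference was not shown. Leaving out 1 of the 12 female libraries at a time kept the log2 fold change between -1.18 and -0.996, but the adjusted p was above 0.05 in 7 of the 12 cases. In these FTL_339, FTL_340, FTL_341, FTL_342 or FTL_344 of the THC group or FTL_334 or FTL_335 of the vehicle group was left out, and the highest adjusted p was 0.0713 (without FTL_340). Without FTL_344, the library whose sex-linked genes go against its label, the log2 fold change was -1.09 (adjusted p 0.0519) and 0 subunit genes were DEGs.

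Gng8 lies on chromosome 7 (mm10, 16891786 to 16895436, plus strand) and overlaps no other annotated gene. The bases before its start are shown because it was the only subunit gene called for THC. They are chr7:16891536-16891785 of GRCm38.p6 from RefSeq, written 5′ to 3′ on the strand of the gene, with the GC box in capitals:
Gng8: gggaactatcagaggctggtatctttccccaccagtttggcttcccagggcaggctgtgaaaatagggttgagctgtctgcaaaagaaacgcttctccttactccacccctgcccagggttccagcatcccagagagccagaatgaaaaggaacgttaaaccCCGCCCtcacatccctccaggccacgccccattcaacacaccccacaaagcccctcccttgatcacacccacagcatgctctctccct
The window held 1 GC box and 4 CpG dinucleotides at 56% GC, against 5 and 15 in that of the outer start of Gng7 above.

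The other subunit genes of the female Amy with an unadjusted p under 0.05 did not pass the FDR. Gng7 ran from 115 to 193 CPM with vehicle (median 159) and from 181 to 258 CPM with THC (median 204), with an overlap (log2 fold change 0.46, SE 0.125, adjusted p 0.0684). Gng11 ran from 4.64 to 13.7 CPM with vehicle (median 8.05) and from 3.44 to 7.33 CPM with THC (median 4.23), also with an overlap (-0.82, SE 0.246, adjusted p 0.0874). By DESeq2 Gng7 and Gng11 passed (adjusted p 0.0128 and 0.0195). Gnao1 ran from 472 to 701 CPM with vehicle and from 658 to 809.9 CPM with THC (0.23, SE 0.0824, adjusted p 0.132). Gnai2 ran from 208 to 244 CPM with vehicle and from 191 to 206 CPM with THC, and the groups did not overlap (-0.14, SE 0.0507, adjusted p 0.132). Gnal ran from 166 to 325.1 CPM with vehicle and from 269.2 to 386 CPM with THC (0.31, SE 0.141, adjusted p 0.216). Without FTL_344 there were again 6 subunit genes with an unadjusted p under 0.05, against 18% of all genes. The log2 fold changes were then 0.50 for Gng7 (edgeR adjusted p 0.0752), -0.80 for Gng11 (0.160), 0.24 for Gnao1 (0.203), -0.14 for Gnai2 (0.223) and 0.37 for Gnal (0.215). Gng7 then ran from 196 CPM upwards with THC and no longer overlapped the vehicle libraries.

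As a share of γ transcripts per kb, Gng7 ran from 8.89 to 17.2% in the vehicle libraries of the female Amy (mean 13.7 ± 2.96%, n = 6) and from 17.4 to 22.6% in the THC libraries (19.4 ± 2.14%, n = 6). The groups did not overlap, and the difference of means was 5.64 percentage points (exact permutation test, two-sided, p 0.00216, the smallest this design can give, adjusted over the 10 groups 0.0216). Without FTL_344 the difference was 6.02 percentage points (exact permutation test, adjusted p 0.0433), and with the difference of medians in place of means it was 3.996 percentage points (exact permutation test, adjusted p 0.0866). In the male Amy the share ran from 12.8 to 27.3% with vehicle and from 9.64 to 34.9% with THC, a difference of -1.19 percentage points (exact permutation test, adjusted p 0.861), or -0.18 without FTL_356. A test of the sexes against each other was not run for this share. In the other 8 groups the adjusted p was 0.130 or higher. The nearest were the male NAc, where the share was 56.1 ± 4.55% with vehicle and 63.3 ± 5.19% with THC (difference 7.26 percentage points, exact permutation test, p 0.0260, adjusted p 0.130), and the male VTA, where it was 4.67 ± 0.274% and 4.18 ± 0.397% (difference -0.49 percentage points, exact permutation test, p 0.0411, adjusted p 0.137). In the male VTA the adjusted p was 0.0476 without FTL_373 of Male_VTA_Veh.

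**Figure D5:**
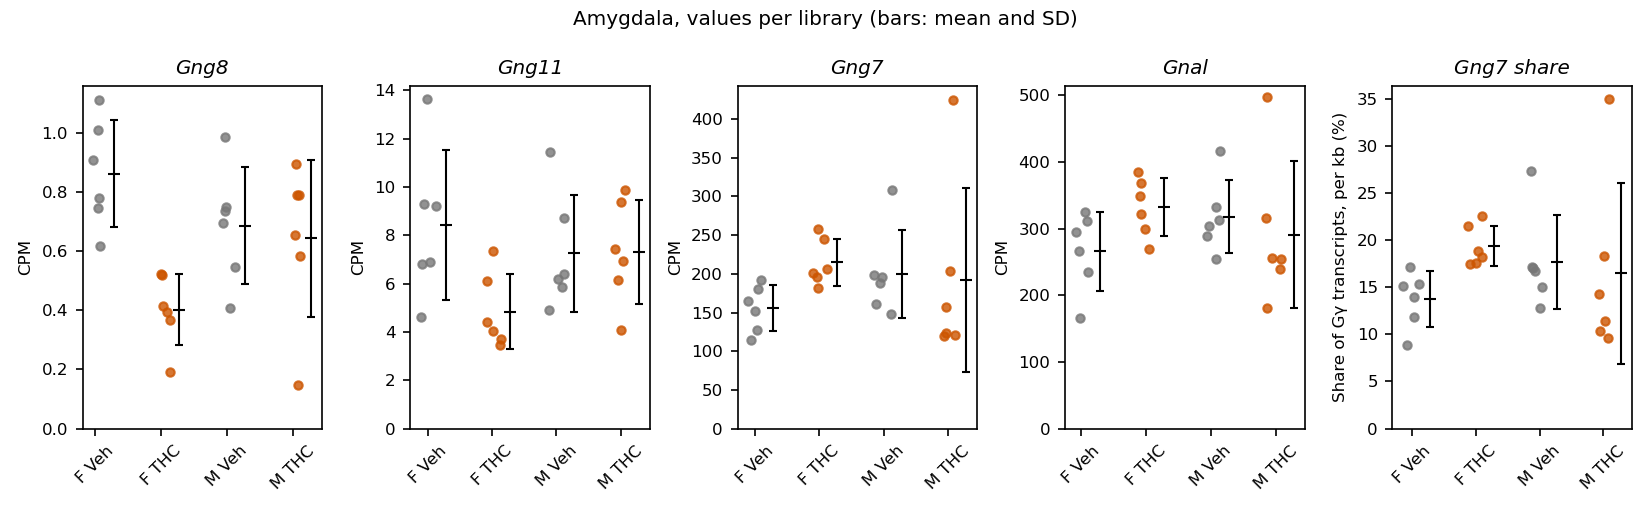
CPM of Gng8, Gng11, Gng7 and Gnal and the share of Gng7 in γ transcripts per kb (percent) in the Amy libraries of vehicle- and THC-treated females and males. Each point is 1 library, and bars show the mean and SD of 6. The female groups lie apart for Gng8 and for the share of Gng7, and all male groups overlap.

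Markers of other cells were looked at in the same contrast of the female Amy. All 6 markers tested for projection neurons of the cortex and basolateral amygdala were higher with THC, 4 of them at an FDR under 0.05 (Slc17a7, Tbr1, Neurod6 and Rspo2), and their summed level ran from 506 to 752 CPM with vehicle and from 813 to 1166 CPM with THC, with no overlap. Of the medium spiny and central amygdala neuron markers 8 of 9 were higher, with sums of 490 to 1093 CPM and 836 to 1385 CPM. All 6 tested markers of hypothalamus and medial amygdala were lower, with sums of 33.5 to 112 CPM and 26.8 to 67.0 CPM, and Hcrt was under 0.1 CPM. These sums rested mainly on Slc17a6 (mean 50.4 CPM in the Amy), which had a mean of 221 CPM in the VTA. Markers of the habenula, where Gng8 is also known, summed to 14.6 to 37.8 CPM and 24.3 to 29.1 CPM, with Pou4f1 under 0.1 CPM in both groups. The habenula sums rested mainly on Tac2 (mean 31.1 CPM in the Amy, against 0.725 CPM for Gpr151). They do not by themselves measure habenula tissue. All 5 oligodendrocyte markers were lower, with sums of 2229 to 7139 CPM and 2409 to 4232 CPM, and the 3 choroid plexus markers tested were higher with sums of 17.1 to 1149 CPM and 17.6 to 3561 CPM. None of these medium spiny, hypothalamus, oligodendrocyte and choroid plexus markers passed the FDR. Their smallest edgeR adjusted p were 0.0552 (Ppp1r1b), 0.0526 (Otp), 0.202 (Mog) and 0.373 (Kl). Of the dopaminergic markers, Nr4a2 was higher (0.59) and Th lower (-0.64) at an FDR under 0.05. The part of these cell types in the values of Gng8 and Gng7 was not tested. Without FTL_344 all these lists kept their counts of higher and lower markers. The same 4 projection neuron markers passed, Th did not (adjusted p 0.0519), and the sums of the medium spiny list with THC began at 989 CPM. Of the pathway lists in the female Amy, where 1.57% of all genes were DEGs, 4 of 13 receptors were DEGs, all higher: Chrm1 (0.50, SE 0.0810), Adora1 (0.48, SE 0.0993), Cnr1, which encodes the CB1 receptor (0.45, SE 0.108), and Chrm4 (0.41, SE 0.0939), with edgeR adjusted p from 0.0117 to 0.0438. Of 19 effectors, Adcy1 was higher (0.74, SE 0.162, adjusted p 0.0319) and Adcy8 lower (-0.44, SE 0.0995, adjusted p 0.0373), and of 20 regulators Rgs7bp, a membrane anchor of R7 RGS proteins with Gβ5, was higher (0.43, SE 0.0827, adjusted p 0.0201). Without FTL_344, where 0.936% of all genes were DEGs, Chrm1, Adora1, Chrm4 and Rgs7bp were still DEGs. Cnr1 (0.45, edgeR adjusted p 0.0790), Adcy1 (0.73, adjusted p 0.0604) and Adcy8 (-0.43, adjusted p 0.0707) were not.

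In the NAc of males 9 subunit genes had an unadjusted p under 0.05, 5 higher and 4 lower with THC, with adjusted p between 0.210 and 0.259. Among those higher, Gnal ran from 614 to 771 CPM with vehicle (median 703) and from 711 to 894 CPM with THC (median 816; log2 fold change 0.21, SE 0.0640, adjusted p 0.210), and Gng7 from 633 to 959.9 CPM and from 890.1 to 1298 CPM (0.34, SE 0.108, adjusted p 0.210), each with an overlap. Gnb4 (0.23, SE 0.0713), Gnb5 (0.15, SE 0.0582) and Gnb2 (0.13, SE 0.0558) were the others. Of those lower, Gng2 ran from 92.2 to 125 CPM with vehicle (median 100.2) and from 48.8 to 91.6 CPM with THC (median 75.1), and the groups did not overlap (-0.48, SE 0.146, adjusted p 0.210). Gnas ran from 815 to 1089 CPM and from 550 to 884 CPM with an overlap (-0.36, SE 0.119, adjusted p 0.213), and Gna15 (-0.45, SE 0.177) and Gna13 (-0.14, SE 0.0439) were the others. By DESeq2 Gng2 was a DEG (adjusted p 0.0290), and Gng7, Gnas and Gnal had adjusted p of 0.0431, 0.0444 and 0.0481 at changes under the fold threshold. The log2 ratio of Gnal to Gnas was -0.44 ± 0.287 with vehicle and 0.13 ± 0.397 with THC, a difference of 0.58 (exact permutation test, p 0.0238, adjusted over the 10 groups 0.238). In the 9 other groups the adjusted p of this ratio was 0.336 or higher, or 0.119 in the female Amy when FTL_344 was left out (exact permutation test, difference 0.41).

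The male NAc changes were set beside the difference between the DMS and the PFC, as a description without a test. Over the 28 subunit genes, r between the log2 fold change of THC in the male NAc and that of DMS against PFC was 0.572, and over the 15835 genes tested in both it was 0.341, where genes are not independent replicates. Of the 9 subunit genes with an unadjusted p under 0.05, 7 (77.8%) moved in the direction of the DMS, as did 76.1% of all such genes. In females of the same region this r was -0.45 over the subunit genes and -0.24 over all genes, where 29.8% of the genes with an unadjusted p under 0.05 moved in the direction of the DMS. For the subunit genes r was -0.34 and 0.012 in the VTA and 0.073 and -0.11 in the Amy, for females and males respectively. Medium spiny neuron markers were higher with THC in 8 of 9 cases, 7 at an unadjusted p under 0.05 and 0 at an FDR under 0.05, with sums of 2554 to 3884 CPM with vehicle and 3460 to 5259 CPM with THC. Sums of cortical projection neuron markers ran from 5.29 to 105 CPM and from 2.04 to 12.7 CPM. Sums of the hypothalamus and medial amygdala list ran from 14.2 to 39.0 CPM and from 5.86 to 12.9 CPM, without overlap. In the NAc the latter sums rested mainly on Slc17a6 (mean 8.92 CPM) and Trh (mean 3.75 CPM). Slc17a6 is not particular to the hypothalamus and had a mean of 221 CPM in the VTA. The part of all these markers in the values of the subunit genes was not tested. Of the pathway lists 0 genes were DEGs in the male NAc, and 8 receptors, 9 effectors and 7 regulators of 13, 19 and 20 tested had an unadjusted p under 0.05 against 16.7% of all genes, with Chrm4 (0.35, SE 0.0716), Adcy5 (0.33, SE 0.0994), Plcb4 (-0.63, SE 0.185) and Rgs11 (0.22, SE 0.0581) among those of smallest p (adjusted p 0.210 each). Drd1, Drd2, Adora2a and Rgs9 stand in both the pathway lists and the medium spiny list.

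In the DMS of females, Gnb4 had the smallest p. It ran from 41.0 to 55.9 CPM with vehicle (median 53.0) and from 57.0 to 66.5 CPM with THC (median 60.9), and the groups did not overlap (log2 fold change 0.26, SE 0.0646, adjusted p 0.247). By DESeq2 its adjusted p was 0.0371, at a change under the fold threshold. In males of the DMS it ran from 56.0 to 64.9 CPM and from 53.2 to 73.4 CPM. Gnb1, Gnao1 and Gnai3 had log2 fold changes of -0.096, -0.11 and 0.12 in the female DMS (adjusted p 0.408 to 0.458). In the VTA of females, all 5 genes with an unadjusted p under 0.05 were lower with THC. Gnai2 ran from 231 to 275.3 CPM with vehicle and from 184 to 243 CPM with THC (-0.22, SE 0.0657), Gna12 from 186.5 to 218 CPM and from 175 to 194 CPM (-0.15, SE 0.0466), and Gng7 from 38.5 to 50.4 CPM and from 34.4 to 40.2 CPM (-0.19, SE 0.0713), each with an overlap, and Gngt2 and Gna11 had log2 fold changes of -0.56 and -0.11 (adjusted p 0.512 to 0.539 for the 5). In the same contrast all 5 microglial markers were lower, 4 at an unadjusted p under 0.05, with sums of 162 to 204 CPM and 121 to 178 CPM, and all 7 dopaminergic markers were lower, 1 at an unadjusted p under 0.05, with sums of 2699 to 3793 CPM and 1153 to 3805 CPM. All 5 astrocyte markers were lower as well, 3 at an unadjusted p under 0.05, with sums of 1494 to 2231 CPM and 767 to 2189 CPM. The part of these cells in the values was not tested.

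In the remaining groups the smallest p belonged to Gnb2 in the female PFC (0.07, SE 0.0299, adjusted p 0.832), Gna14 in the female NAc (-0.50, SE 0.201, adjusted p 0.991), Gnb4 and Gng13 in the male Amy (-0.14, SE 0.0610, and 0.38, SE 0.177, adjusted p 1.000 each), Gng13 in the male PFC (-0.096, SE 0.0646, adjusted p 1.000), Gng10 in the male DMS (-0.073, SE 0.0593, adjusted p 1.000) and Gng13 in the male VTA (0.28, SE 0.135, adjusted p 0.819). Without FTL_356, 0 subunit genes were DEGs in the male Amy, as with it.

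With both sexes in 1 fit of a region and sex as a covariate, 0 subunit genes were DEGs for THC in any region, where 0% of all genes were. The smallest p belonged to Gng8 in the Amy (-0.67, SE 0.214, adjusted p 0.671), Gng12 in the NAc (-0.067, SE 0.0235, adjusted p 0.384), Gng7 in the VTA (-0.13, SE 0.0473, adjusted p 0.4001), Gnb4 in the DMS (0.14, SE 0.0539, adjusted p 0.957) and Gng10 in the PFC (0.083, SE 0.0432, adjusted p 0.999). Without both libraries whose sex-linked genes go against their labels, Gng8 in the Amy was at -0.57 (adjusted p 0.992). The interaction of sex and treatment gave 0 DEGs among the subunit genes, where 0.0059% of all genes in the Amy were DEGs and 0% elsewhere. The smallest p were those of Gnas in the NAc, where the effect in males minus that in females was -0.42 (SE 0.142, adjusted p 0.385), Gnao1 in the DMS (0.16, SE 0.0578, adjusted p 0.764), Gnai2 in the VTA (0.25, SE 0.0951, adjusted p 0.780), Gnb4 in the Amy (-0.20, SE 0.0764, adjusted p 0.260, or 0.275 without FTL_344 and FTL_356) and Gnb2 in the PFC (-0.093, SE 0.0414, adjusted p 0.834). In the NAc of females Gnas ran from 730.5 to 986 CPM with vehicle and from 798.5 to 879 CPM with THC.

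Males and females were compared with treatment as a covariate. By both thresholds 0 subunit genes were DEGs in any region, where the shares of all genes were 0.237% (PFC), 2.64% (DMS), 0.25% (NAc), 0.0118% (Amy) and 0.113% (VTA). At an FDR under 0.05 alone, 7 of 28 subunit genes differed in the DMS against 10.9% of all genes, and 2 of 28 in the NAc against 2.17%. There were 0 in the PFC, Amy and VTA, against 1.77%, 0.0177% and 0.166% of all genes. In the DMS, Gnai2 (0.14, SE 0.0344), Gnai3 (0.12, SE 0.0358) and Gna13 (0.091, SE 0.0299) were higher in males, and Gnal (-0.14, SE 0.0376), Gng7 (-0.14, SE 0.0361), Gnb2 (-0.13, SE 0.0317) and Gnao1 (-0.10, SE 0.0322) were lower, with edgeR adjusted p from 0.0106 to 0.0486. Without the filter on low counts, Gna13, Gnai3 and Gnao1 did not pass (adjusted p 0.112, 0.0717 and 0.0526). In vehicle libraries Gng7 ran from 1442 to 1695 CPM in females and from 1190 to 1528 CPM in males, and Gnal from 911 to 1120 CPM and from 771 to 1002 CPM, with overlaps. Medium spiny neuron markers were lower in males in 8 of 9 cases in this comparison, 3 at an FDR under 0.05, with sums in vehicle libraries of 6991 to 9489 CPM in females and 5677 to 8964 CPM in males, and their part in these values was not tested. In the NAc, Gng3 was 0.22 higher in males (SE 0.0467, adjusted p 0.0146) and Gng13 0.26 higher (SE 0.0703, adjusted p 0.0449, or 0.0681 without the filter on low counts). Gng3 ran from 88.4 to 112 CPM in females and from 107 to 130 CPM in males among vehicle libraries, and from 95.6 to 109 CPM and from 102 to 134 CPM among THC libraries. In this comparison 5 of 5 oligodendrocyte markers and 5 of 5 microglial markers were higher in males, 0 and 1 of them at an FDR under 0.05, and their part in these values was not tested. The smallest p elsewhere belonged to Gnai2 in the PFC (0.063, SE 0.0242, adjusted p 0.173), Gnai2 in the Amy (0.093, SE 0.0439, adjusted p 0.804, or 0.740 without FTL_344 and FTL_356) and Gna12 in the VTA (0.12, SE 0.0416, adjusted p 0.485).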

How the data were processed

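RNA of 119 brain samples, each 1 region of 1 mouse, was sequenced as polyadenylated, strand-marked libraries with paired reads. Per the labels and the study's methods, the authors trimmed reads with cutadapt 2.9, aligned them to mm10 with STAR 2.7.3a and deposited expected counts per gene from RSEM 1.3.1, in 1 table for the PFC and DMS and another for the NAc, Amy and VTA. The annotation release and the strand setting of the counting are not given in the sources used here. RSEM shares reads between similar genes, so expected counts of genes with close copies are estimates.

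Expected counts were rounded to whole numbers. Genes passed filterByExpr of edgeR 4.0.16 (R 4.3.3), libraries were scaled by TMM, and robust quasi-likelihood fits were made over all genes, with Benjamini-Hochberg adjustment over all genes tested. THC was fitted within each region and sex, with sex as a covariate for both sexes, and with an interaction term. Regions were compared only within a table, without pairing by mouse, since the labels do not give it. Levels are TMM-scaled CPM. A prior count of 2 was added before taking log2. Exon lengths, coordinates and overlaps are from GENCODE vM21. Shares, the ratio of Gnal to Gnas and their differences were computed per library and tested by exact permutation (Python 3.11.15, scipy 1.17.1). The fits were tested on simulated data.

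The genes named were those with an adjusted p under 0.05 in a comparison of THC, interaction or sex, otherwise the gene of smallest p, the 12 genes with the largest ratio between regions at a mean of 1 CPM or more, and a fixed set of 18 genes by role. Genes with an unadjusted p under 0.05 were named in addition, after their values were seen. From the receptor, effector and regulator lists up to 4 genes each were named by smallest p. The members and lists were chosen with earlier results of these data known. Depth ran from 3091000 to 77042100 counts, so genes near 1 CPM rest on few counts. Alternatives tried were DESeq2 1.42.0, its size factors, no filter on low counts, all groups of a region in 1 fit, vehicle libraries alone for regions, leaving out libraries, other scalings of the levels, medians and counts without division by length. Among the fits, each library was left out in turn only for THC in the female Amy and DMS and the male NAc and VTA. Fits over both sexes of the VTA left out each library of Male_VTA_Veh. The other fits of the Amy left out FTL_344, FTL_356 or both, and the remaining fits left out none.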

Additional observations from a re-analysis of the deposited data

Results flagged for a closer look

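Groups of libraries were looked at for the gene named in each comparison of THC within a region and sex, the log2 ratio of Gnal to Gnas and the share of Gng7 in γ transcripts per kb. Of 60 such groups, 8 held 1 library far from the rest by Dixon's test, where chance gives about 1 in 20. Gnb4 was 41.0 CPM in 1 library of Female_DMS_Veh, and the next lowest was 50.6 CPM. The log2 ratio of Gnal to Gnas was 0.79 in 1 library of Female_DMS_Veh (next 1.58), -0.58 in 1 of Female_NAc_Veh (next -0.05) and -3.48 in 1 of Female_Amy_Veh (next -2.75). The share of Gng7 was 47.4% in 1 library of Male_NAc_Veh, with the next lowest at 56.1%, and 4.19% in 1 of Male_VTA_Veh, with the next lowest at 4.74%. It was 27.3% in 1 library of Male_Amy_Veh, with the next highest at 17.2%, and 34.9% in 1 of Male_Amy_THC, with the next highest at 18.3%.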

How the results depend on the processing

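Among the counts of subunit genes called, 175 of the alternative values stayed within 1.5 times, 4 were higher and 6 lower, and no called gene changed direction under the alternatives run. Most comparisons had 0 called to begin with, and a 0 that stayed 0 is counted among the 175. This tally therefore says little about the stability of the calls that were made. DESeq2 called 3 subunit genes in the female Amy, Gng7, Gng8 and Gng11 (adjusted p 0.0128, 0.00222 and 0.0195), and 1 in the male NAc, Gng2 (adjusted p 0.0290). It tested 31 and 32 of the genes there, without the filter of edgeR. Leaving out 1 library at a time gave 0 to 2 called in the female Amy, with 0 without FTL_339, FTL_340, FTL_341, FTL_342, FTL_344 (THC) or FTL_335 (vehicle), and 2 without FTL_343 (THC) or FTL_337 (vehicle). Without FTL_334 (vehicle) 1 was called, and it was not Gng8, whose adjusted p was then above 0.05. Over all genes, 1.57% of 17003 were DEGs in the female Amy, 544 genes of 31194 with DESeq2, 126 genes with all 4 groups of the region in 1 fit, and as few as 56 with a library left out. The difference of medians of the Gng7 share in the female Amy was 3.996 percentage points and no longer passed. That of means in the male VTA ran from -0.61 to -0.44 with a library left out and passed without FTL_373. The correlation of Gnal and Gng7 in the PFC was 0.587 over all libraries, past the threshold by r (adjusted p 0.00946) and 0.182 without the 2 farthest. Of the other single genes, Gnb4 in the female DMS passed the FDR by DESeq2 (adjusted p 0.0371) but not the fold threshold (log2 fold change 0.26). Without the filter on low counts Gna13, Gnai3 and Gnao1 in the DMS and Gng13 in the NAc no longer passed the FDR between the sexes. The causes were not tested. No paired analysis was possible because replicate numbers are unique library numbers. With CPM over the library total without TMM, 19 levels moved by over 1 SD, 15 in the PFC (by -7.56 to -7.54%) and 4 in the NAc (by 3.95 to 3.98%), and no other level moved so far. Results of the Amy outside the planned comparisons were recomputed without FTL_344 and FTL_356, a choice made after seeing the data. Genes near 1 CPM are limited by depth.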
